A study of Mus musculus with 96 samples.

Results

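Endothelial cells (ECs) of the mouse heart were compared between day 28 after myocardial infarction (D28) and hearts without infarction (D0), using small RNA sequencing. The comparison rested on 8 of 96 libraries, 4 of ECs at D28 and 4 of ECs at D0, chosen by the cell type and day in their titles. Infarction was made in male C57Bl/6J mice of 12 to 14 weeks, and the ages at collection are not given in the sources used here, so age and day cannot be told apart. At D28 the left anterior descending coronary artery had been permanently ligated, and D0 mice had no infarction, so the surgery itself has no control in these data. ECs were captured with beads against VE-cadherin (CD144) after cardiomyocytes (CMs) had been spun out of the digested heart and CD45-positive hematopoietic cells (HCs) had been removed. Fibroblasts (FBs) were the fourth cell type. RNA of 3 mice, or 2 where a sample was missing, was pooled for each library, so n counts pools and the spread between single mice was not measured. The study also calls the 4 replicates of a group technical, so the SDs and p-values here may measure technical spread only. Of 1978 mature miRNAs listed, 943 had at least 1 count in the 8 libraries and 421 passed the filter on low counts over all 24 EC libraries.

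MicroRNAs are short RNAs that guide Argonaute proteins to messenger RNAs and lower their stability or translation. Each is cut from a hairpin whose 5' arm (5p) and 3' arm (3p) can both be loaded, and the seed near the 5' end does most of the target pairing. In endothelium miR-126a, encoded within the Egfl7 gene, is the most characteristic miRNA and acts in VEGF signalling and vessel integrity. The let-7 family is associated with differentiated cells, the miR-17-92 cluster with proliferation, and miR-29 with repression of collagen genes.

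The mature sequences of miRNAs on which the results turn are printed here with the seed (bases 2 to 8) in capitals, as RefSeq lists them for GRCm38.p6. RefSeq held a sequence for 355 of the 421 tested miRNAs (84.3%), and in all 355 the length equalled that in the tables. The first set rose strongly at D28.
miR-676-3p: cCGUCCUGagguuguugagcu
miR-541-5p: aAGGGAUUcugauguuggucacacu
miR-379-5p: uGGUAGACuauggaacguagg
The second set fell strongly, and in it miR-378c and miR-378d have nearly the same sequence.
miR-378c: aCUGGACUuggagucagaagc
miR-378d: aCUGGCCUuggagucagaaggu
miR-499-5p: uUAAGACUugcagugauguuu
The third set shows seed families, of which let-7a-5p and let-7b-5p were higher at D28 and the miR-29 and miR-17 members lower, while let-7g-5p did not pass the test.
let-7a-5p: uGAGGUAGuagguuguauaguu
let-7b-5p: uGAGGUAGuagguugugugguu
let-7g-5p: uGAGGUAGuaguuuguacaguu
miR-29a-3p: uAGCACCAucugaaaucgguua
miR-29b-3p: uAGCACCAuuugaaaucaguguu
miR-17-5p: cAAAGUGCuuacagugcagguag
miR-20a-5p: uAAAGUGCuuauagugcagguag
miR-106b-5p: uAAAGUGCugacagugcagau
The last set holds the other arm of miR-106b, which moved against miR-106b-5p, and miR-25-3p and miR-32-5p, which share a seed and went opposite ways.
miR-106b-3p: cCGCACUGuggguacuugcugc
miR-25-3p: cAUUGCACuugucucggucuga
miR-32-5p: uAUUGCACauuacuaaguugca

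In GENCODE (GRCm38) miR-676-3p lies at chrX:100381151-100381171 on the plus strand, in an intron of Eda. MiR-541-5p lies at chr12:109742422-109742446 (+) in an intron of the noncoding RNA Mirg, and miR-379-5p at chr12:109709065-109709085 (+) between annotated genes, both in the imprinted Dlk1-Dio3 region. MiR-499-5p lies at chr2:155622893-155622913 (+) in an intron of the myosin gene Myh7b. MiR-378c lies at chr14:46954905-46954925 (-) on the strand opposite to Samd4, in one of its introns, and miR-378d at chr10:126710355-126710376 (-) between genes. MiR-106b-5p lies in an intron and miR-25-3p in an exon of Mcm7, a gene of DNA replication, and miR-17-5p and miR-20a-5p in an exon of the noncoding RNA Mir17hg.

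The D28 libraries were shallower and less even than those of D0. Their total counts on mature miRNAs were 525651, 1829814, 636084 and 3902765 for replicates 1 to 4, against 2105446 to 20465553 at D0 (exact permutation test, two-sided, p = 0.114, smallest possible 0.0286, adjusted 0.19 over 4 measures). The share of reads with no match to a mature sequence was 73.1% ± 5.15 (SD, n = 4) at D28 and 57.6% ± 7.81 at D0 (exact p = 0.0571, adjusted 0.19). After thinning to 525651 counts, 396 to 446 miRNAs were detected at D28 and 421 to 437 at D0 (exact p = 0.143, adjusted 0.19), and the share of the 10 highest miRNAs was 62.5% ± 3.02 and 64.5% ± 0.606 (exact p = 0.257, adjusted 0.257). Among 147 miRNAs that averaged 100 CPM or more (the usual unit of counts scaled to the total of mature counts of a library), the median SD of log2 CPM was 0.64 at D28 and 0.18 at D0, and 143 had the larger SD at D28. The study left out 1 EC replicate of D28 that its text does not name. All 4 were kept here.

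Of the 421 miRNAs, 198 (47.0%) differed between D28 and D0 at an adjusted p under 0.05, 113 of them higher (26.8%) and 85 lower (20.2%) at D28. Levels were tested with edgeR's quasi-likelihood test on counts scaled by TMM, with Benjamini-Hochberg adjustment over all tested miRNAs. The spread was estimated from all 24 EC libraries. Since D28 libraries spread more widely than those of D0, p-values of contrasts with D28 may be too small. Every adjusted p below that names edgeR is from this fit, unless its sentence or paragraph names another fit. All 4 D28 libraries lay above all 4 D0 libraries, on the TMM-scaled log2 CPM, for 70 miRNAs (16.6%) and below them for 65 (15.4%). The median log2 fold change was 0.07 over all tested miRNAs, and the median size of the called changes was 1.55. Among the 147 miRNAs of at least 100 CPM, 90 were called, 49 higher and 41 lower. In bulk RNA, fewer cells of a type and less RNA per cell cannot be told apart, for these and all levels that follow.

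The count of calls was 229 (123 of them lower) without D28 replicate 1, 189, 203 or 198 without replicate 2, 3 or 4, and 211 without replicates 1 and 3, the shallowest. With the 8 libraries fitted alone 128 miRNAs were called (58 higher, 70 lower), each of them also among the 198, and with limma and quality weights, which gave the D28 libraries low weight, 122 were called. Without D28 replicate 1 and with the 8 libraries alone, more of the calls were thus lower than higher. The median log2 fold change over all miRNAs was -0.03 with library size alone and 0.11 with DESeq2. A set of 83 miRNAs (42 higher, 41 lower) was called in each of the 17 alternatives that were not limited to miRNAs with a RefSeq sequence.

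**Figure D1:**
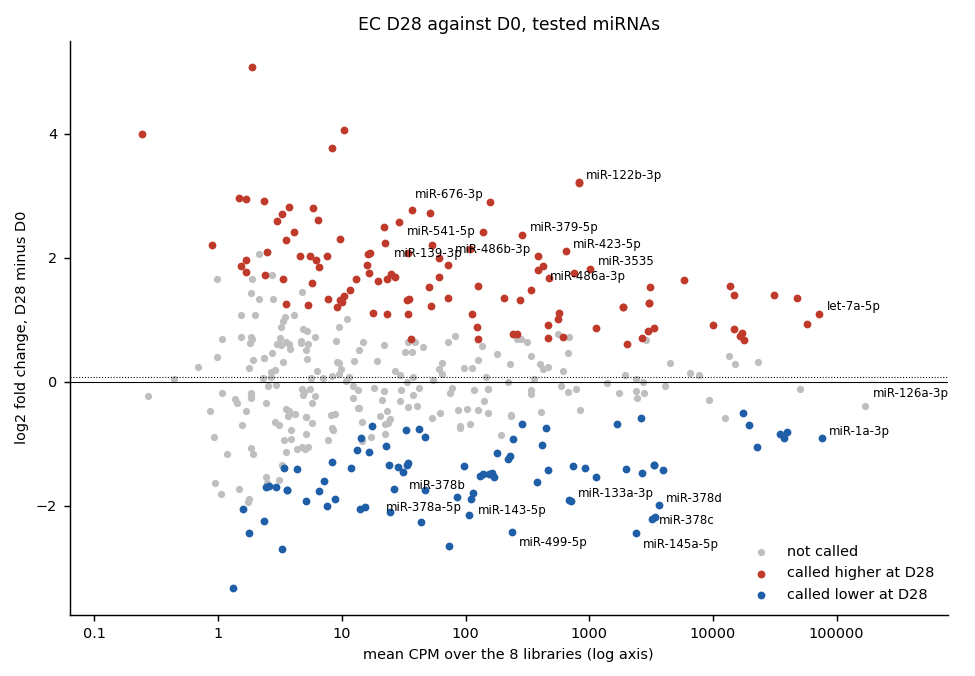
Mean CPM over the 8 libraries (log axis) against the log2 fold change of D28 over D0 for the tested miRNAs, apart from 3 with 0 counts in every D28 library, which have no finite fold. Red points were called higher, blue points lower and grey points neither, and the dotted line is the median of 0.07. MiR-122b-3p stands highest among the abundant miRNAs, at 3.22.

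The largest rise among miRNAs of at least 100 CPM was that of miR-122, the dominant miRNA of hepatocytes. MiR-122-5p stood at 216, 153, 125.2 and 151 CPM in the D0 libraries and at 1522, 1129, 2419 and 941 CPM at D28. Every D28 library was above every D0 library, and the log2 fold change was 3.20 (SE 0.41, adjusted p = 4.1e-07, edgeR). The row miR-122b-3p, with 3.22, held nearly the same counts, at ratios of 1.01 to 1.03 in the 8 libraries, and is no separate measurement. MiR-192-5p and miR-194-5p, which liver and gut also make, did not follow it. Of 5 tested liver and gut rows 2 rose, both of miR-122, and 1 fell. These are 40% and 20%, against 26.8% and 20.2% of all tested miRNAs. MiR-192-5p was at 587 ± 46.9 CPM (SD, n = 4) at D0 and 635 ± 119 CPM at D28 (log2 fold change 0.18, adjusted p = 0.54, edgeR), and miR-194-5p fell from 318 ± 32 to 141 ± 89.0 CPM (adjusted p = 0.00099, edgeR). At D28 miR-122-5p was at 71.0 ± 30.5 CPM in FBs, 2.40 ± 0.728 in HCs and 1.01 ± 0.212 in CMs.

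MiR-486, encoded with the ankyrin gene Ank1 and known from red cells and muscle, rose on both arms. MiR-486b-3p stood at 139, 249, 115 and 129 CPM at D0 and 466, 1046, 714 and 231 CPM at D28. The highest D0 library lay above the lowest D28 library in CPM but not on the TMM scale, and the log2 fold change was 2.02 (SE 0.42, adjusted p = 0.00029, edgeR). MiR-486a-3p rose by 1.87 and miR-486a-5p by 1.21 on the log2 scale. MiR-486a-5p and miR-486b-5p were listed with identical counts. The other red cell miRNAs gave no such call. MiR-451a, the most abundant miRNA of red cells, stood at 128, 196, 169 and 44.2 CPM at D0 and 108, 81.4, 73.9 and 62.8 CPM at D28, with overlapping groups (log2 fold change -0.69, adjusted p = 0.26, edgeR), and neither arm of miR-144 passed. Of 7 tested erythroid rows 4 rose (57.1%, against 26.8% of all tested miRNAs), all of them miR-486. Without D28 replicate 2, which had the highest miR-486, 2 of them rose, as did 2 with the 8 libraries alone and with limma and quality weights.

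Other abundant miRNAs among the 10 largest rises belonged to none of the lists. MiR-676-3p stood at 35.6, 49.8, 34.8 and 35.1 CPM at D0 and 217, 311, 363.2 and 227 CPM at D28, with no overlap and a log2 fold change of 2.90 (SE 0.33, adjusted p = 2.2e-07, edgeR). MiR-139-3p, from an intron of the phosphodiesterase gene Pde2a, went from 40.2 ± 7.55 to 177 ± 78.4 CPM, a log2 fold change of 2.13. MiR-423-5p, from an intron of Nsrp1, was at 227 to 295 CPM at D0 and 793 to 1460.5 CPM at D28 (log2 fold change 2.10). MiR-3535, which lies in an exon of the nucleolin gene Ncl on the same strand, was at 316 to 599 CPM at D0 and 655 to 2544 CPM at D28 (log2 fold change 1.82, adjusted p = 0.00067, edgeR). The D28 libraries were above the D0 libraries in each of these miRNAs, with a wide spread among them for miR-3535.

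MiRNAs of the imprinted Dlk1-Dio3 region, which are expressed from the maternal chromosome, formed the longest list. Of 84 rows 40 were tested and 20 rose (50%, against 26.8% of all tested miRNAs), with a median log2 fold change of 1.08 against 0.07 over all tested miRNAs. MiR-379-3p and miR-411-3p, both among the rises, had nearly the same counts, such as 178 and 181 in D0 replicate 3. In D28 replicate 4 both had 116, so they may not be separate measurements. The 1 that fell, miR-376c-3p, had 59 counts at D0 and none at D28, which places it at least 2.12 lower on the log2 scale with a floor of 3 counts over the group. The most abundant member, miR-127-3p, stood at 388, 352, 402 and 275 CPM at D0 and 1176, 1123, 1152 and 1121 CPM at D28. Its D28 libraries lay close together and far above D0, with a log2 fold change of 1.75 (SE 0.22, adjusted p = 4.1e-07, edgeR). MiR-379-5p rose from 87.1, 92.7, 118 and 97.8 CPM to 314, 667, 439 and 484 CPM, a log2 fold change of 2.37 (SE 0.30). MiR-541-5p rose from 40.6, 49.4, 47.1 and 42.7 CPM to 221, 157, 267 and 278 CPM, a log2 fold change of 2.42 (SE 0.26, adjusted p = 2.1e-07, edgeR). The groups did not overlap for these, nor for miR-382-5p, which rose by 2.77, or miR-409-3p, which rose by 2.24.

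In map order, a stretch of 14 hairpins at chr12:109563710-109595387 held 10 tested miRNAs with a RefSeq sequence, of which 7 rose. A stretch of 36 hairpins at chr12:109709065-109747949 held 29 of this kind, of which 14 rose. None of these miRNAs fell. Tested miRNAs without a RefSeq sequence, miR-376c-3p among them, were not placed in the stretches. The summed level of the Dlk1-Dio3 list was 632 to 812 CPM at D0 and 2213 to 2572 CPM at D28, and its median at D28 was 9458 CPM in FBs, 1440.1 in HCs and 136 in CMs. The number that rose was 11 with limma and quality weights, 12 of 21 testable with the filter set on the 8 libraries alone and 10 of 20 after thinning. Without D28 replicates 1 and 3 it was 21.

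Muscle miRNAs were among the largest falls. MiR-145a-5p, a miRNA of smooth muscle and pericytes, stood at 4841, 4346, 3348 and 3748 CPM at D0 and 898, 1208, 506 and 277 CPM at D28. All D28 libraries were below all D0 libraries, and the log2 fold change was -2.45 (SE 0.30, adjusted p = 2.6e-07, edgeR). From the same locus miR-145a-3p and miR-143-5p fell by 1.62 and 1.90 on the log2 scale. Thus 3 of the 4 tested rows of the locus fell (75%, against 20.2% of all tested miRNAs). The abundant arm miR-143-3p stood at 57172, 58567, 58648 and 44451 CPM at D0 and 26719, 100885, 37538 and 22094 CPM at D28. In this arm 3 D28 libraries were below all of D0 and replicate 2 was above (log2 fold change -0.12, adjusted p = 0.80, edgeR).

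Of the cardiomyocyte miRNAs, which act in the contractile gene program, 10 of 17 rows were tested and 8 fell (80.0%, against 20.2% of all tested miRNAs). Of these, miR-133a-3p and miR-133b-3p were listed at count ratios of 1.04 to 1.05 and are not separate measurements. MiR-499-5p stood at 534, 408, 388 and 264 CPM at D0 and 76.1, 50.8, 101 and 65.3 CPM at D28, with no overlap and a log2 fold change of -2.42 (SE 0.36, adjusted p = 6.6e-06, edgeR). MiR-208a-3p, from an intron of the alpha myosin heavy chain gene Myh6, went from 41.2 ± 13.3 to 7.86 ± 3.70 CPM, and miR-133a-3p from 1143 ± 334 to 287 ± 237 CPM. Their groups did not overlap either. MiR-1a-3p, the most abundant miRNA of heart muscle, stood at 100940.0, 132318, 74847 and 103708 CPM at D0 and 20493, 80096, 40199 and 54677 CPM at D28. Replicate 2 of D28 lay within the range of D0, and the log2 fold change was -0.92 (SE 0.38) at an adjusted p of 0.0498 by edgeR, just under the threshold. MiR-1a-1-5p and miR-133a-5p had 68 and 89 counts at D0 and none at D28, which places them at least 2.33 and 2.72 lower on the log2 scale. The list's median log2 fold change was -2.01, also with these at their bounds. Without D28 replicate 2 the number that fell was 10, with limma and quality weights 4, and with the filter set on the 8 libraries alone 4 of 7. The summed level of the list, in which rows that share their counts were added once here and in the sums that follow, was 87611 to 154508 CPM in ECs at D0 and 25954 to 97891 CPM at D28, against a median of 583763 CPM in CMs at D28.

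The miR-378 family, whose main member lies in the gene of the mitochondrial coactivator PGC-1beta, had 5 rows among the 10 largest falls. MiR-378a-3p stood at 5944, 5587, 5066 and 5918 CPM at D0 and 1676, 1527, 937 and 703 CPM at D28, a log2 fold change of -2.19 (SE 0.26, adjusted p = 2.5e-07, edgeR). MiR-378d was at 5123 to 6156 CPM at D0 and 989.6 to 1767 CPM at D28 (log2 fold change -2.0), and the other arm, miR-378a-5p, at 141 to 215 CPM and 5.64 to 71.6 CPM (log2 fold change -2.15). No D28 library reached the D0 range in any of these, nor in miR-378b (-1.80) and miR-378c (-2.21). MiR-378a-3p and miR-378c were listed at count ratios of 1.05 to 1.11 and are not separate measurements. MiR-378d had counts close to those of miR-378a-3p at D0, such as 12625 and 12459 in replicate 4. They were less close in D28 replicate 4, at 3862 and 2744. MiR-378d may thus not be a fully separate measurement either. At D28 miR-378a-3p was at 25069.8 ± 2108 CPM in CMs and 391 ± 121 CPM in FBs.

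**Figure D2:**
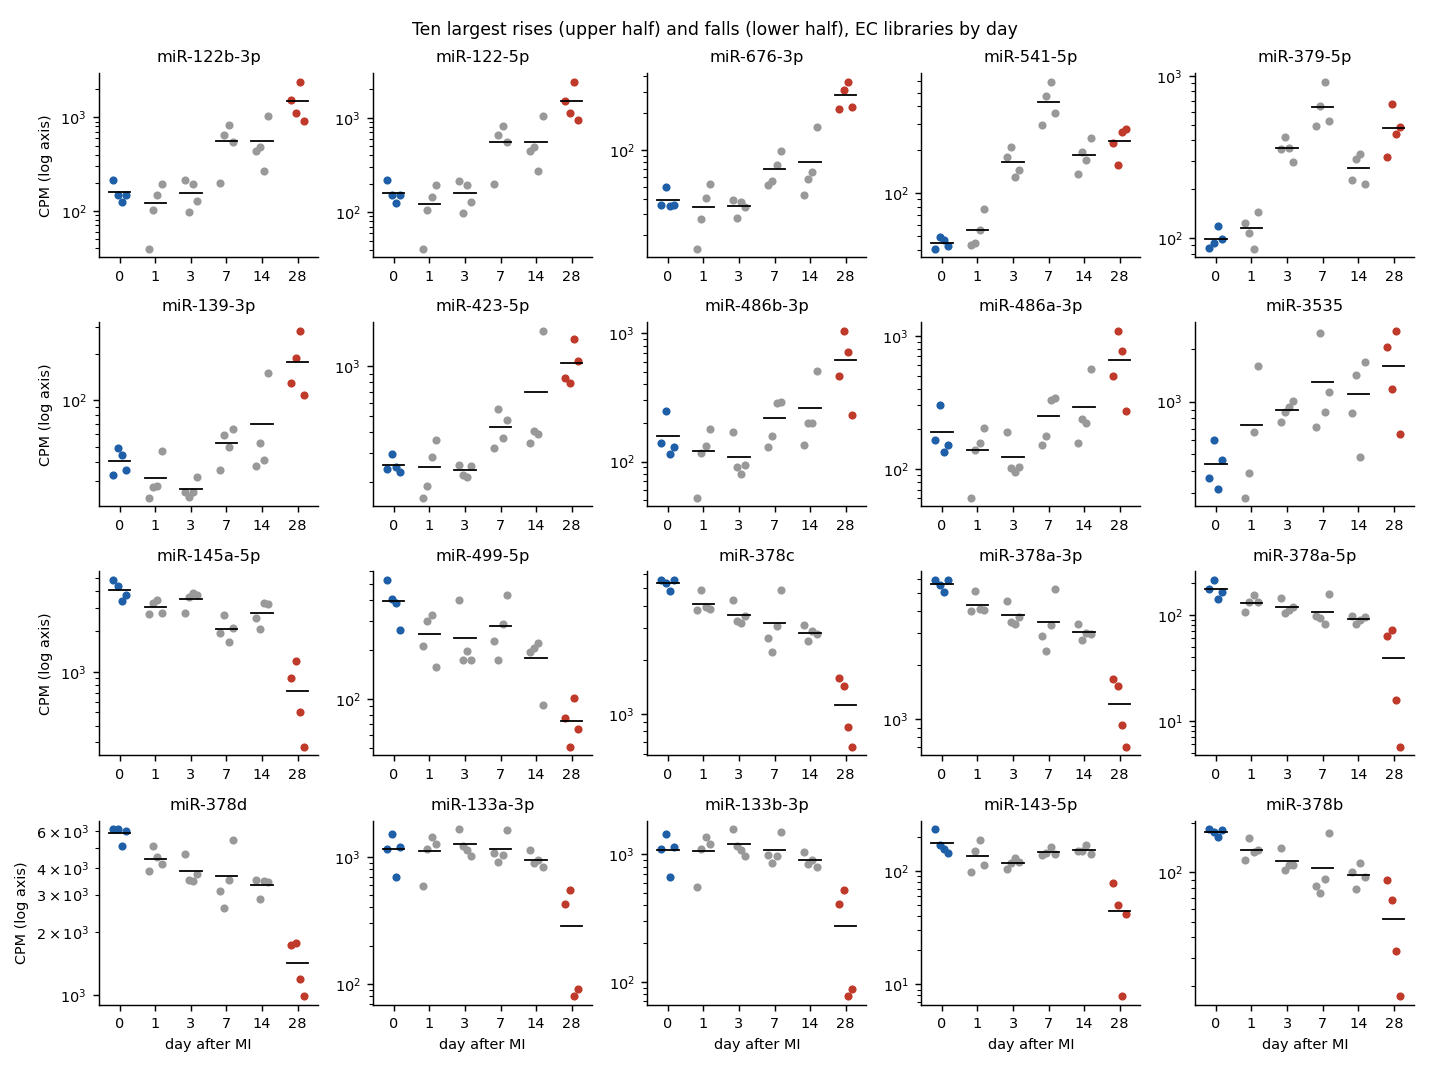
CPM (log axis) of the 10 largest rises and 10 largest falls in each EC library by day after infarction, with days evenly spaced and a bar at the mean (n = 4). Blue points are D0, red points D28 and grey points the days between. The mean of miR-379-5p was highest at D7, at 646 CPM, and that of miR-378a-3p lowest at D28, at 1211 CPM.

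The defining endothelial miRNA, miR-126a-3p, had the highest mean level on both days. It stood at 186639, 170792, 210396 and 204151 CPM at D0 and 220312, 102313, 155872 and 114875 CPM at D28. At D28 1 library was above all of D0 and 3 were below, and the difference did not pass (log2 fold change -0.40, SE 0.17, adjusted p = 0.056, edgeR). Its other arm, miR-126a-5p, fell from 4812 ± 826 to 1888 ± 1423 CPM (log2 fold change -1.34, adjusted p = 0.0021, edgeR), and had nearly the same counts as miR-126b-3p. At D28 miR-126a-3p was at 18512 ± 3083 CPM in FBs, 16453 ± 1483 in CMs and 21452 ± 2001 in HCs, each below the lowest EC library.

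Let-7 miRNAs took a larger part of the counts at D28. Let-7a-5p stood at 46666, 47758, 50911 and 48429.6 CPM at D0 and 71260.2, 87072, 105503 and 124172 CPM at D28, a log2 fold change of 1.09 (SE 0.20, adjusted p = 8.0e-05, edgeR). Let-7b-5p went from 17709.8 ± 668 to 44176 ± 15874 CPM (1.40), let-7c-5p from 28296 ± 581 to 67487 ± 25405 CPM (1.34) and let-7e-5p from 8639.7 ± 304 to 20994 ± 8344 CPM (1.39, log2 fold changes in brackets). The D28 libraries lay above the D0 libraries for each of these. Let-7g-5p did not pass, at 21378 ± 1068 CPM at D0 and 24924 ± 5276 CPM at D28 (adjusted p = 0.21, edgeR). Of 9 tested members with the seed GAGGUAG 7 rose, and the 9 log2 fold changes ran from 0.28 to 1.40.

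Of 19 tested rows of the whole let-7 list 9 rose (47.4%) and 2 fell (10.5%), against 26.8% and 20.2% of all tested miRNAs. Those that fell were the 3p arms let-7i-3p (-2.01) and let-7f-1-3p (-1.39). The list summed to 188891 to 199979 CPM at D0 and 289865 to 491342 CPM at D28, and had a median of 372466 CPM in FBs and 76215 CPM in CMs at D28. With the 8 libraries fitted alone 3 rows rose and with no filter 5. Without D28 replicate 4, the library with the highest let-7 sum, 8 rose and 5 fell.

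Other abundant miRNAs were lower at D28. MiR-26a-5p went from 51452 ± 5527 to 28005 ± 9737 CPM (log2 fold change -0.82, adjusted p = 0.0024, edgeR), and miR-26b-5p fell by 1.42 on the log2 scale, the other 2 tested rows of that family not passing. In the miR-30 family, which is abundant in heart muscle and endothelium, miR-30a-5p went from 46348, 45784, 51225 and 52619.7 CPM to 35602, 27815, 22744 and 17130.4 CPM, with no overlap (log2 fold change -0.91, adjusted p = 0.00097, edgeR). MiR-30d-5p, miR-30e-5p and miR-30b-5p fell by 0.84, 1.05 and 1.53, whereas miR-30c-5p did not pass (-0.30, adjusted p = 0.33, edgeR). Of 11 tested rows of the family 4 fell (36.4%) and 3 rose (27.3%), against 20.2% and 26.8% of all tested miRNAs. The share that rose was thus near that of all. MiR-30a-5p and miR-30d-5p were listed at count ratios of 1.0 to 1.1 and may not be separate measurements. The 3p arms miR-30a-3p, miR-30e-3p and miR-30c-2-3p rose by 0.71, 0.61 and 0.91. None of these rises was called without D28 replicate 2, with no filter, or in the fit of the 8 libraries alone.

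The miR-17 seed family fell in all 6 tested members, where 20.2% of all tested miRNAs fell. The miRNAs with the seed AAAGUGC (miR-17-5p, miR-20a-5p, miR-20b-5p, miR-93-5p, miR-106a-5p and miR-106b-5p), which repress cell cycle inhibitors, fell by 1.02 to 1.69 on the log2 scale. MiR-17-5p stood at 255, 209.8, 224 and 269 CPM at D0 and 207, 37.7, 18.9 and 84.0 CPM at D28 (adjusted p = 0.0030, edgeR). MiR-20a-5p stood at 744, 612, 654 and 716 CPM at D0 and 489, 121, 48.7 and 315 CPM at D28. Replicate 1 was the highest D28 library in both and replicate 3 the lowest. Counts of miR-17-5p and miR-106a-5p were close, such as 654 and 511 in D0 replicate 1 and 109 and 93 in D28 replicate 1. The pair may thus not be separate measurements. MiR-20b-5p, with the largest fall of the family, rested on few counts, with 0, 3, 0 and 5 at D28. MiR-19a-3p and miR-19b-3p of the same clusters fell by 1.36 and 1.49. Cluster members with the seed AUUGCAC went the other way, with rises of 0.77 for miR-92a-3p and 0.82 for miR-25-3p, while miR-32-5p of another locus with that seed fell by 1.74. In all, 8 of 15 tested rows of the miR-17-92 cluster and its paralogs fell (53.3%) and 4 rose (26.7%). Of all tested miRNAs 20.2% fell and 26.8% rose, so the share that rose was near that of all. The number of rises was 2 with the 8 libraries alone and 1 of 12 tested rows with the filter set on them.

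The miR-29 family fell in its abundant arms. MiR-29a-3p stood at 4975, 3972, 3705 and 3208 CPM at D0 and 2945, 892, 539 and 1296 CPM at D28, below D0 in every library (log2 fold change -1.47, SE 0.33, adjusted p = 0.00076, edgeR). MiR-29b-3p, with 143, 175, 91.0 and 96.4 CPM and 41.9, 18, 4.72 and 15.4 CPM, fell by 2.64, and miR-29c-3p by 1.42. All 3 miRNAs with the seed AGCACCA thus fell, and 4 of 6 tested rows of the family (66.7%, against 20.2% of all tested miRNAs). Of 6 miRNAs with the seed AGCAGCA, which act on cyclins and Bcl2, 4 fell. These were miR-15a-5p (-2.26), miR-16-5p (-1.40), miR-322-5p (-1.54) and miR-195a-5p (-0.68). The last was not called once a trend on GC content was removed from each library (-0.45, adjusted p = 0.10, edgeR). MiR-15b-5p and miR-497a-5p had log2 fold changes of -0.22 and -0.72 that did not pass. Of 11 tested rows of the miR-15/16 list 4 fell (36.4%) and 1 rose (9.1%), against 20.2% and 26.8% of all tested miRNAs. With limma and quality weights 2 rows of the list fell.

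In the family of miR-99, miR-100 and miR-125 6 of 9 tested rows rose (66.7%, against 26.8% of all tested miRNAs). The median log2 fold change of these rows was 1.09. MiR-99b-5p stood at 6446, 7515, 7636 and 6912 CPM at D0 and 14394, 26009, 29356 and 12216 CPM at D28, with no overlap (log2 fold change 1.55, SE 0.27, adjusted p = 5.6e-05, edgeR). MiR-125b-5p rose from 1654 ± 191 to 4592 ± 2197 CPM (1.53). All 3 miRNAs with the seed CCCUGAG rose, the others being miR-125a-5p by 0.91 and miR-351-5p by 1.01. MiR-99b, let-7e and miR-125a lie next to each other within Spaca6 on chromosome 17, and of the 4 tested arms of let-7e and miR-125a 3 rose. MiR-99a-5p and miR-100-5p, which share their seed with miR-99b-5p, had log2 fold changes of 0.29 and 0.42 that did not pass.

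Members of the miR-34 family, targets of p53, went opposite ways. MiR-34c-5p stood at 23.0, 17.9, 27.2 and 16.1 CPM at D0 and 72.3, 47.5, 53.5 and 168 CPM at D28 (log2 fold change 2.20, adjusted p = 6.2e-05, edgeR). MiR-34a-5p stood at 25, 26.5, 23.3 and 26.6 CPM at D0 and 9.51, 6.01, 0 and 5.89 CPM at D28 (log2 fold change -2.03, adjusted p = 0.00016, edgeR). Both were without overlap, in opposite directions. MiR-34b-5p rose by 2.50 and miR-34b-3p by 1.97. The latter rested on few counts, with 0, 2, 15 and 3 at D0 and 4, 2, 0 and 9 at D28 (adjusted p = 0.047, edgeR). At D28 miR-34c-5p was at 1089.8 ± 206 CPM and miR-34a-5p at 44.3 ± 10.8 CPM in FBs.

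Of 7 tested miR-181 rows 3 fell (42.9%) and 1 rose (14.3%), and of 11 miR-23/27/24 rows 3 fell and 3 rose (27.3% each), against 20.2% and 26.8% of all tested miRNAs. In the latter, miR-27b-3p and miR-27a-3p fell by 0.51 and 0.70 and their partner arms miR-27b-5p and miR-27a-5p rose by 1.75 and 0.88. With the GC trend removed miR-27a-5p was not called (0.48, adjusted p = 0.058, edgeR). Of 6 tested rows of miR-148 and miR-152 edgeR called 0, with 1 at an unadjusted p under 0.05, and DESeq2 called 1. Of 5 tested rows of the epithelial miR-200 family edgeR called 0, with 0 at an unadjusted p under 0.05, and DESeq2 called 0.

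Of 17 tested rows linked to angiogenesis 3 rose (17.6%) and 2 fell (11.8%), fewer than the 26.8% and 20.2% of all tested miRNAs. MiR-10a-5p and miR-10b-5p, which lie in the Hox clusters, rose by 0.68 and 0.74 with overlapping groups. Their counts were close in each library, such as 37713 and 33604 in D0 replicate 1 and 5834 and 5593 in D28 replicate 1. They may thus not be separate measurements. MiR-296-3p rose by 1.86 on few counts, with 2, 5, 8 and 3 at D0 and 0, 8, 2 and 5 at D28. MiR-210-3p, a target of the hypoxia factor HIF-1, fell by 0.72 and miR-10a-3p by 1.47. None of the 3 rises was called with the 8 libraries alone. Of 9 tested rows linked to inflammation 1 rose and 1 fell (11.1% each), also fewer than the 26.8% and 20.2% of all tested miRNAs. MiR-146b-5p, which NF-kB induces, rose by 0.72, and miR-155-5p fell by 0.90. With the GC trend removed miR-155-5p was not called (-0.24, adjusted p = 0.38, edgeR). MiR-21a-5p, raised in many injured tissues, stood at 2816, 1834, 2554 and 2242 CPM at D0 and 4899, 1444, 987 and 6354 CPM at D28. Its D28 libraries lay on both sides of D0, and the difference did not pass (log2 fold change 0.66, adjusted p = 0.20, edgeR). With the GC trend removed it passed (1.06, adjusted p = 0.0083, edgeR).

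The VE-cadherin fraction could hold other cells, and their marker lists were counted in the same way. Of 6 tested fibroblast rows, of which miR-199a-3p and miR-199b-3p held identical counts, 3 rose (50%, against 26.8% of all tested miRNAs). All 6 changes were positive. MiR-199a-3p stood at 2049, 1561, 2218 and 1514 CPM at D0 and 6426, 1936, 2291 and 6211 CPM at D28, and was high in replicates 1 and 4. The summed fibroblast list was 2418 to 3359 CPM at D0 and 2402 to 8933 CPM at D28, against a median of 80288 CPM in FBs, with the EC groups overlapping. The number of fibroblast rows that rose was 1 with the 8 libraries alone and 5 without D28 replicate 2, without replicate 3 and without replicates 1 and 3.

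Of 8 tested leukocyte rows 2 rose and 2 fell (25% each, near the 26.8% and 20.2% of all tested miRNAs), and the list summed to 2638 to 2987 CPM at D0 and 1138 to 3542 CPM at D28, against a median of 10725 CPM in HCs. The myeloid miR-223-3p was at 0.475 to 1.17 CPM at D0 and 1.09 to 6.29 CPM at D28, and miR-142a-3p, found in all blood lineages, at 4.75 to 18 CPM and 4.61 to 15.2 CPM. The summed smooth muscle and pericyte list was 48816 to 63643 CPM at D0 and 22693 to 102261 CPM at D28, where replicate 2 was above all of D0 and the others below. The erythroid list summed to 1378 to 2584 CPM at D0 and 2413 to 6392 CPM at D28, and the liver and gut list to 994 to 1142 CPM and 1569.7 to 3166 CPM. The 2 endothelial rows summed to 174749 to 215247 CPM at D0 and 103768 to 224231 CPM at D28. The part of a changed cell makeup in the differences between D28 and D0 was not tested.

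**Figure D3:**
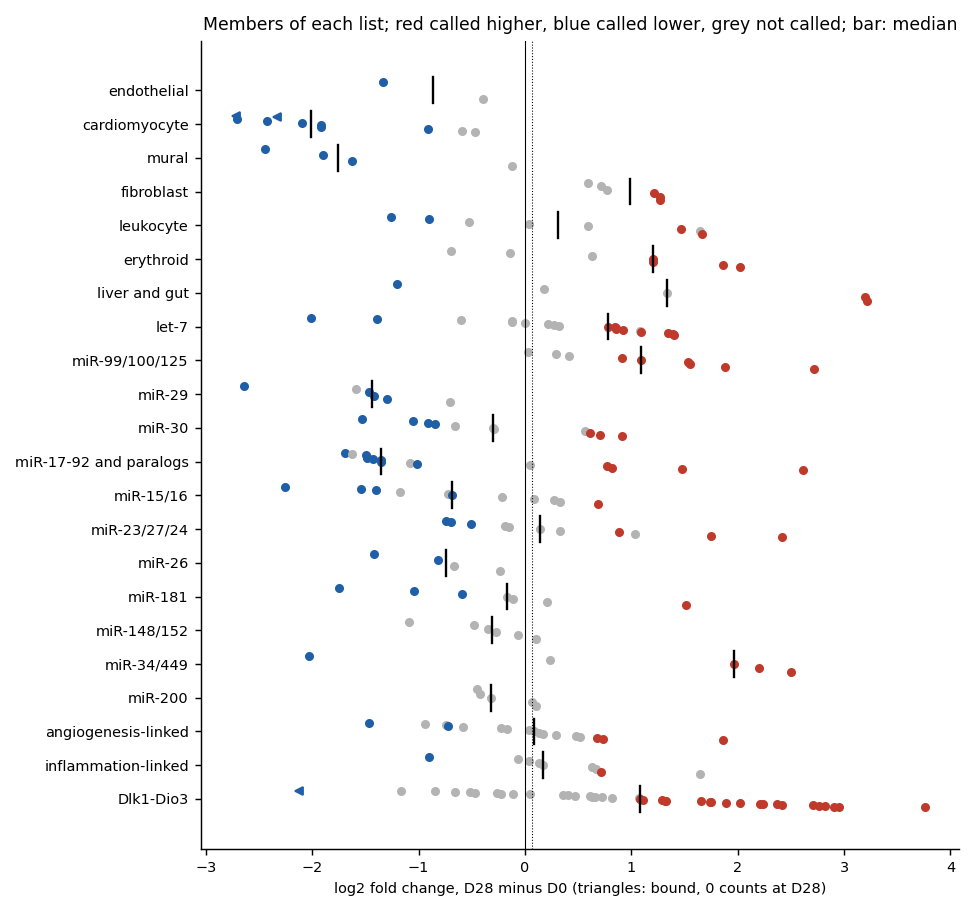
Log2 fold change of D28 over D0 for the tested members of each list, with the list's median as a bar and the median of all tested miRNAs (0.07) dotted. Red points were called higher, blue points lower and grey points neither, and triangles give the bound for members with 0 counts at D28. The cardiomyocyte members all lie left of 0, with a median of -2.01, and the Dlk1-Dio3 list has its median at 1.08.

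The ratio of the 5p to the 3p counts of a hairpin does not depend on library scaling. Where an arm has few counts, it does depend on depth, through the pseudocount of 0.5. The ratio differed between D28 and D0 for 39 of 92 hairpins (42.4%) by limma on log2 ratios, with 15 higher (16.3%) and 24 lower (26.1%). One called hairpin, let-7i, had 39473 counts on its 5p arm and 0 on its 3p arm in D28 replicate 2. For miR-106b the log2 ratio was -1.70, -2.09, -1.99 and -1.85 at D0 and -3.80, -5.66, -4.90 and -3.84 at D28, a change of -2.64 (SE 0.49, adjusted p = 0.00043, limma). As levels, miR-106b-5p fell from 48.9 ± 3.77 to 18.4 ± 4.22 CPM and miR-106b-3p rose from 184 ± 9.73 to 488 ± 274 CPM. For miR-342, known from lymphocytes, the log2 ratio went from -4.85 ± 0.56 to -1.84 ± 1.08, and for miR-27b from -11.34 ± 0.53 to -9.09 ± 0.80. The ratio of miR-151 fell from -1.44 ± 0.51 to -4.56 ± 2.00, and that of miR-139 from 4.59 ± 0.29 to 2.02 ± 0.85, so that its 5p arm remained the more abundant one. The 5 hairpins named had the largest changes with at least 50 mean counts on each arm, and their D0 and D28 libraries did not overlap.

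Where both arms were tested as levels (110 hairpins), both rose in 13, both fell in 8 and the arms went opposite ways in 10, namely let-7i, miR-10a, miR-27a, miR-27b, miR-30a, miR-30e, miR-106b, miR-151, miR-195a and miR-342. With the GC trend removed, miR-27a-5p and both arms of miR-195a were not called. With the 8 libraries fitted alone 14 arm ratios were called, 3 higher and 11 lower, and after thinning 24 of 42 testable ones.

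**Figure D4:**
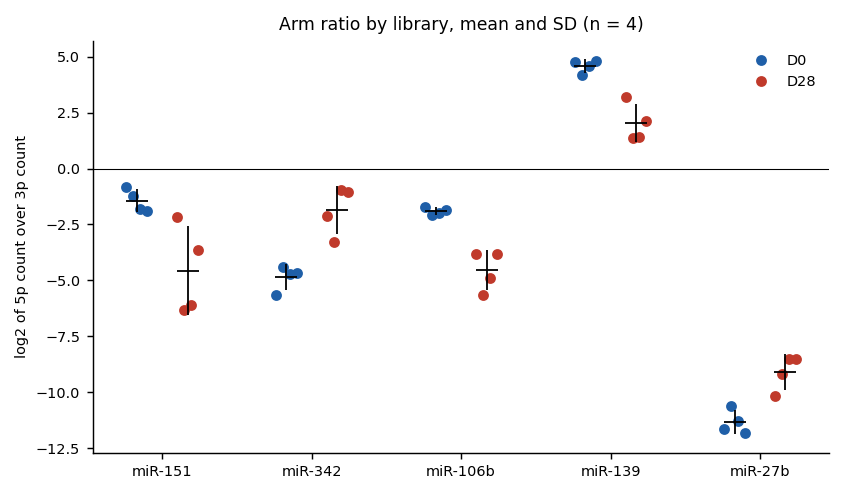
Log2 of 5p over 3p counts (pseudocount 0.5) in each D0 library (blue) and D28 library (red) for the 5 named hairpins, with mean and SD (n = 4). The groups are apart for each hairpin, and the SD of miR-151 is 0.51 at D0 and larger at D28.

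Against D14, the time point before it, 107 miRNAs differed at D28 (25.4%), 59 higher (14.0%) and 48 lower (11.4%). With library size alone the split was 28 higher and 90 lower. This contrast shares its D28 libraries with the one against D0. MiR-676-3p had the largest rise among abundant miRNAs without overlap, from 42.6, 57.8, 66.4 and 154 CPM at D14 (log2 fold change 2.13, SE 0.32, adjusted p = 0.00014, edgeR). MiR-122-5p was 1.65 higher than at D14, where it stood at 445, 491, 271 and 1035 CPM, and miR-195a-3p and miR-674-3p were 1.24 and 1.15 higher on the log2 scale. MiR-145a-5p had a log2 fold change of -1.68 against D14, miR-143-5p of -1.50 and miR-378c, miR-378a-3p and miR-378d of -1.10, -1.09 and -0.97. MiR-541-5p did not pass against D14 (0.62, adjusted p = 0.069, edgeR). The count rested on single libraries, with 58 calls without D14 replicate 3, 66 and 69 without D14 replicates 1 and 2, and 161 without D28 replicate 1.

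Over the 6 days, as a description, 83 of the 85 miRNAs lower at D28 had their lowest day mean at D28, and 77 of the 113 higher ones had their highest there. Of all 421 tested, 194 were lowest and 101 highest at D28. The miRNAs were called with the same D28 libraries, which favours an extreme mean on that day. MiR-378a-3p had day means of 5628, 4332, 3774, 3485, 3038 and 1211 CPM from D0 over D1, D3, D7 and D14 to D28. Let-7a-5p had day means of 48441, 47785, 52103, 57175, 59567 and 97002 CPM in the same order, with its highest mean at the last. MiR-122-5p had 161, 122, 159, 559.6, 561 and 1503 CPM, with its highest mean at D28. MiR-379-5p had 99.0, 116, 357, 646, 270.2 and 476 CPM, with its highest mean at D7. MiR-17-5p had 239.6, 306, 419, 295, 236 and 87.0 CPM, with its lowest mean at D28.

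The change in ECs was set against the mean change from D0 to D28 in CMs, FBs and HCs, in a fit of all 96 libraries and 712 miRNAs. It differed for 284 (39.9%), being higher in ECs for 124 (17.4%) and lower for 160 (22.5%). The median of the difference over all miRNAs was -0.51 with TMM, -0.87 with library size alone and 0.40 with DESeq2, and the split was 78 higher and 217 lower by library size and 178 higher and 126 lower by DESeq2. The fit kept an HC library of D0 (replicate 3) with 18286 counts, without which 278 were called, 107 higher and 171 lower. The study removed 1 HC and 1 FB replicate of D0 that its text does not name. MiR-122-5p was 3.98 above the others on the log2 scale (SE 0.43, adjusted p = 5.0e-12, edgeR), with a change of 3.16 in ECs and of -1.38, -0.89 and -0.18 in CMs, FBs and HCs. MiR-486b-3p was 3.66 above, with changes of -1.64, -1.66 and -1.67 in the same order. MiR-151-3p was 3.24 above, with changes of 1.64 in ECs and of -3.98, -0.14 and -0.67 in CMs, FBs and HCs.

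Below the others were miR-17-5p (-2.90), miR-106a-5p (-2.82), miR-20a-5p (-2.63), miR-30b-5p (-2.52) and miR-29a-3p (-2.44), as differences of log2 fold changes. Their changes in CMs were 2.37 to 3.03, while the changes in FBs lay between -0.43 and 0.03. MiR-17-5p and miR-106a-5p, with close counts in ECs, may not be separate measurements. The 8 miRNAs named here, with miR-122b-3p and miR-486a-3p, kept direction and call under all 3 scalings. They were picked as the largest differences in the same libraries, which favours this outcome.

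The changes at D28 moved with base composition. Over 219 miRNAs with a sequence and at least 10 CPM, the log2 fold change rose with the percentage of G and C, at a Spearman's rho of 0.34 across miRNAs, and fell with that of A, at -0.36. These miRNAs come from the same 8 libraries and are not independent. The median log2 fold change was -0.47 for 44 miRNAs under 40% GC, -0.11 for 86 from 40 to 50%, 0.50 for 69 from 50 to 60% and 1.05 for 20 at 60% and over. In single libraries, the deviation from the D0 mean followed GC with a rho of 0.40, 0.34, 0.42 and 0.13 for D28 replicates 1 to 4, and with 0.56 for D14 replicate 4. The part of base composition in miRNAs without a sequence was not tested.

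With a loess trend on GC removed from each library, 166 of 355 miRNAs were called against 165 without it, and 142 of the 166 were among the calls above. Let-7a-5p then had a log2 fold change of 1.68, miR-676-3p of 2.44, miR-541-5p of 2.60, miR-139-3p of 1.24, miR-378c of -2.47, miR-17-5p of -1.49 and miR-29a-3p of -1.17. All 6 miRNAs with the seed AAAGUGC and all 3 with AGCACCA fell in this fit, and all 9 with GAGGUAG rose, let-7g-5p among them (0.87, adjusted p = 0.00013, edgeR). Besides those given above, the lost calls included miR-195a-3p and miR-296-3p (0.31 and 1.07, adjusted p = 0.23 and 0.22, edgeR). They also included miR-99b-3p, miR-134-5p and miR-150-3p (0.32, 0.70 and 0.86, adjusted p = 0.20, 0.12 and 0.066, edgeR). Gained calls included miR-223-3p and miR-497a-5p (1.94 and -0.85, adjusted p = 0.031 and 0.032, edgeR). Others were miR-132-3p, miR-30c-1-3p and miR-147-5p (-0.74, -0.93 and 2.04, adjusted p = 0.046, 0.018 and 0.039, edgeR). MiR-92a-3p and miR-351-5p were no longer called (0.32 and 0.41, adjusted p = 0.25 and 0.14, edgeR).

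**Figure D5:**
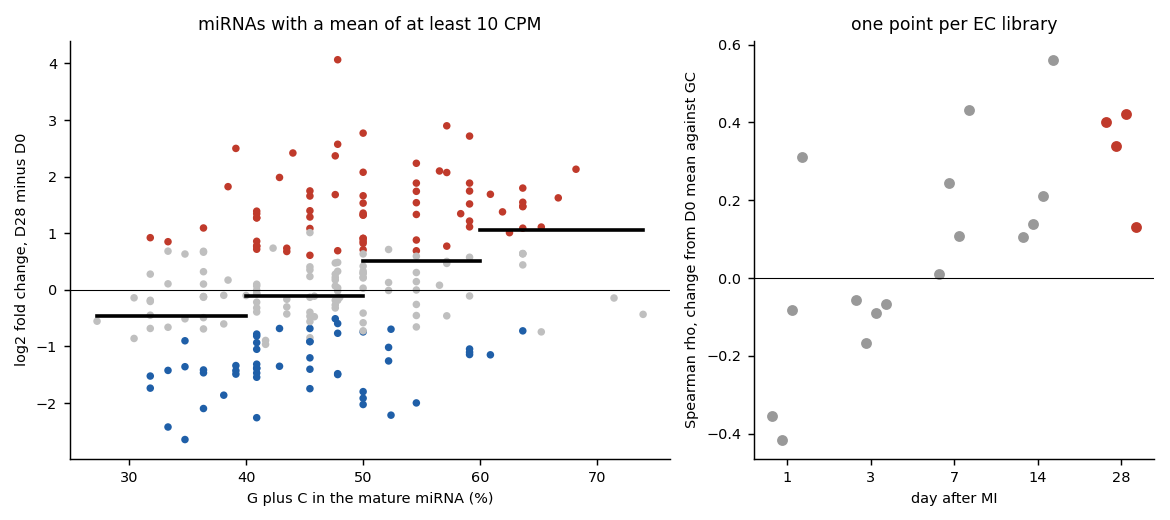
Left, GC percentage against the log2 fold change of D28 over D0 for 219 miRNAs with at least 10 CPM, with red called higher, blue lower and grey neither, and bars at the median of each GC range (-0.47, -0.11, 0.50 and 1.05). Right, Spearman's rho between GC and each EC library's deviation from the D0 mean, 1 point per library, where D28 (red) spans 0.13 to 0.42.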

How the data were processed

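The files hold raw counts per mature miRNA, 1 table per library, as deposited by the authors. The authors pooled RNA of 3 mice per library, built NEBNext small RNA libraries from 50 ng of EC RNA with 16 PCR cycles, trimmed reads, dropped those under 18 nt and counted alignments to miRBase 21 with the nf-core small RNA pipeline. The submitters' processing notes name Trim Galore, Bowtie2, SAMtools and mm10. Whether counting used strand is not given in the sources used here, so miRNAs from opposite strands of 1 hairpin locus may share reads. The row of unmatched reads (48.5% to 77.5% of a library in the 8) stayed out of library sizes and tests.

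Levels were tested with edgeR 4.0.16 (TMM, filterByExpr, quasi-likelihood) on all 24 EC libraries with a mean per day, the difference between cell types on all 96 libraries, and arm ratios with limma 3.58.1 on log2 ratios with a pseudocount of 0.5 where both arms had a mean of at least 10 counts. DESeq2 1.42.0 was an alternative (R 4.3.3). Library measures were compared by exact permutation over 70 arrangements. Fold changes are on the TMM scale and CPM on library size. On simulated counts for 421 miRNAs with 200 changed in EC D28 against D0, 66% of changes of 1 and 94% of changes of 2 on the log2 scale were recovered, and 2.44% of calls were false. The simulated counts of a miRNA had the same dispersion on every day. In the data the median SD of log2 CPM was 0.64 at D28 and 0.18 at D0, so these rates may not hold for them.

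The comparison, the lists and the tests were chosen with earlier results of these data known. Named miRNAs are the 10 largest rises and falls with an adjusted p under 0.05, at least 100 CPM and no overlap, list members, the 10 most abundant per day, the 5 hairpins with the largest arm change, and the 5 largest differences from the other cell types and from D14 in each direction. Relatives by seed, such as miR-32-5p and miR-351-5p, were added after their values were seen. Fits with the filter set on the 8 libraries, without the 2 shallowest D28 libraries, and on base composition (loess span 0.75) were added after seeing the data. Same-numbered D0 and D28 libraries come from different animals, and their deviations correlated at -0.03, -0.06, 0.14 and -0.04. P-values of the main fit measure the spread between pools averaged over all days, which may be technical. This shared spread may understate that at D28, so that these p-values may be too small.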

Additional observations from a re-analysis of the deposited data

Results flagged for a closer look

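Single libraries stood apart from the other 3 of their group in 6 of 48 groups of 4 looked at, by Dixon's ratio at the 95% level, where chance sets apart about 1 in 20. MiR-122-5p was at 2419 CPM and miR-122b-3p, which shares its counts, at 2407 CPM in replicate 3 of D28. MiR-143-5p was at 7.86 CPM in the same library. MiR-486b-3p was at 249 CPM and miR-486a-3p at 300.2 CPM in replicate 2 of D0. After thinning, 446 miRNAs were detected in replicate 1 of D28.

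The change from D0 to D28 differed between ECs and the mean of the other 3 cell types, by the test of that difference in edgeR, for the following miRNAs of at least 100 CPM. It was higher in ECs for miR-122b-3p by 4.06, miR-122-5p by 3.98, miR-486b-3p by 3.66, miR-486a-3p by 3.5 and miR-151-3p by 3.24 on the log2 scale. It was lower in ECs for miR-17-5p (-2.90), miR-106a-5p (-2.82), miR-20a-5p (-2.63), miR-30b-5p (-2.52) and miR-29a-3p (-2.44). The causes were not tested.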

How the results depend on the processing

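For D28 against D0 (198 calls, 113 higher, 85 lower), limma with quality weights called 122 (72 higher, 50 lower), the 8 libraries alone 128 (58 higher, 70 lower), and the filter set on these 8, which left 311 miRNAs, 124 (67 higher). Leaving out 1 library gave 177 to 229 calls, with 229, of which 123 lower, without D28 replicate 1. Other alternatives gave 147 (thinned, 260 tested) to 228 (DESeq2). For D28 against D14 (107 calls) library size alone gave 28 higher and 90 lower and no filter 48 higher and 58 lower, and leaving out 1 library gave 58 to 161 calls, 26 to 72 higher and 25 to 89 lower. For the difference from the other cell types (284 calls), 78 were higher and 217 lower with library size alone, 178 higher and 126 lower with DESeq2, and leaving out 1 library gave 254 to 291. For arm ratios (39 calls) the 8 libraries alone gave 14 (3 higher, 11 lower), thinning, which left 42 hairpins, gave 24 (7 higher), a pseudocount of 5 gave 51, and leaving out 1 library gave 37 to 48. With a replicate block the counts were 180, 89, 283 and 40, and 154 with the block and the GC trend together. The shared numbers did not pair the samples. The balance of higher and lower calls thus turned in several of these fits. For the 20 largest rises and falls all 373 values under alternatives kept direction and call. These miRNAs were picked from the same libraries for large changes without overlap, which favours this outcome, and some of them share their counts. The causes were not tested. Counting depth limits the miRNAs of low level most in D28 replicates 1 and 3.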
